A study of Mus musculus with 10 samples.

Results

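Expression of 10 genes of bile acid synthesis and its control by the nuclear receptor FXR was followed in mouse liver. The genes were chosen by name, as enzymes of the classical and acidic routes, enzymes of conjugation, Nr1h4, which encodes FXR, and Nr0b2, which encodes the repressor SHP. All probe sets annotated to 1 of these symbols were taken, which gave 14 probe sets for the 10 genes out of 34945 probe sets for 18193 genes. Total liver RNA of 10 mice labelled ApoE-/- was hybridised to Affymetrix mouse expression arrays, with a separate mouse on each array. The control group held 5 mice that had received an adenovirus expressing GFP, a fluorescent protein (controls 11 to 15). The other group held 5 mice that had received an adenovirus expressing a dominant negative cJun (labelled dn-cJun, 16 to 20). Loss of ApoE is thus stated for all 10 mice, controls included. cJun is a subunit of the transcription factor AP-1 and the substrate of the JNK kinases. The labels used here name no virus dose, time after infection, age, sex or feeding state.

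Bile acids are made from cholesterol in hepatocytes. The classical route starts with Cyp7a1, its rate-limiting enzyme, and the acidic route with Cyp27a1, a mitochondrial sterol hydroxylase that also oxidises the side chain in both routes. Bile acids activate FXR, which induces Nr0b2, and SHP in turn lowers transcription of Cyp7a1 and Cyp8b1. JNK signalling is also known to lower Cyp7a1, so the comparison asks whether these genes differed between the dn-cJun-labelled mice and the controls. Whether cJun function was blocked in these livers was not tested.

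Values are levels on the scale log2(intensity + 16) after quantile normalization, and differences are dn-cJun-labelled arrays minus control on that scale, which understates changes of dim genes. All 10 genes lay well above the filter on dim genes, from Nr0b2 at percentile 89.9 of all probe set levels to Hsd3b7 at 98.5. Of the 10, 0 passed an adjusted p of 0.05 in the limma fit over 12736 genes, in which 0.777% of all genes passed in either direction. At an unadjusted p under 0.05 there were 2 members, Akr1d1 and Baat, and 14.9% of all genes. A fit with each of 22847 probe sets as its own unit also gave 0 members past the threshold, against 0.744% of probe sets. The log2 fold change was above 0 in 9 of the 10 genes and in 50.3% of all genes, with a median of 0.095 in the members and 0.0015 in all genes. Of the 10 hepatocyte markers used below as a check, 9 were also above 0, with a median of 0.054. The members share arrays, so their common sign is a description. With the values as deposited the median of all genes shifted to -0.19 and that of the members to -0.047.

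**Figure D1:**
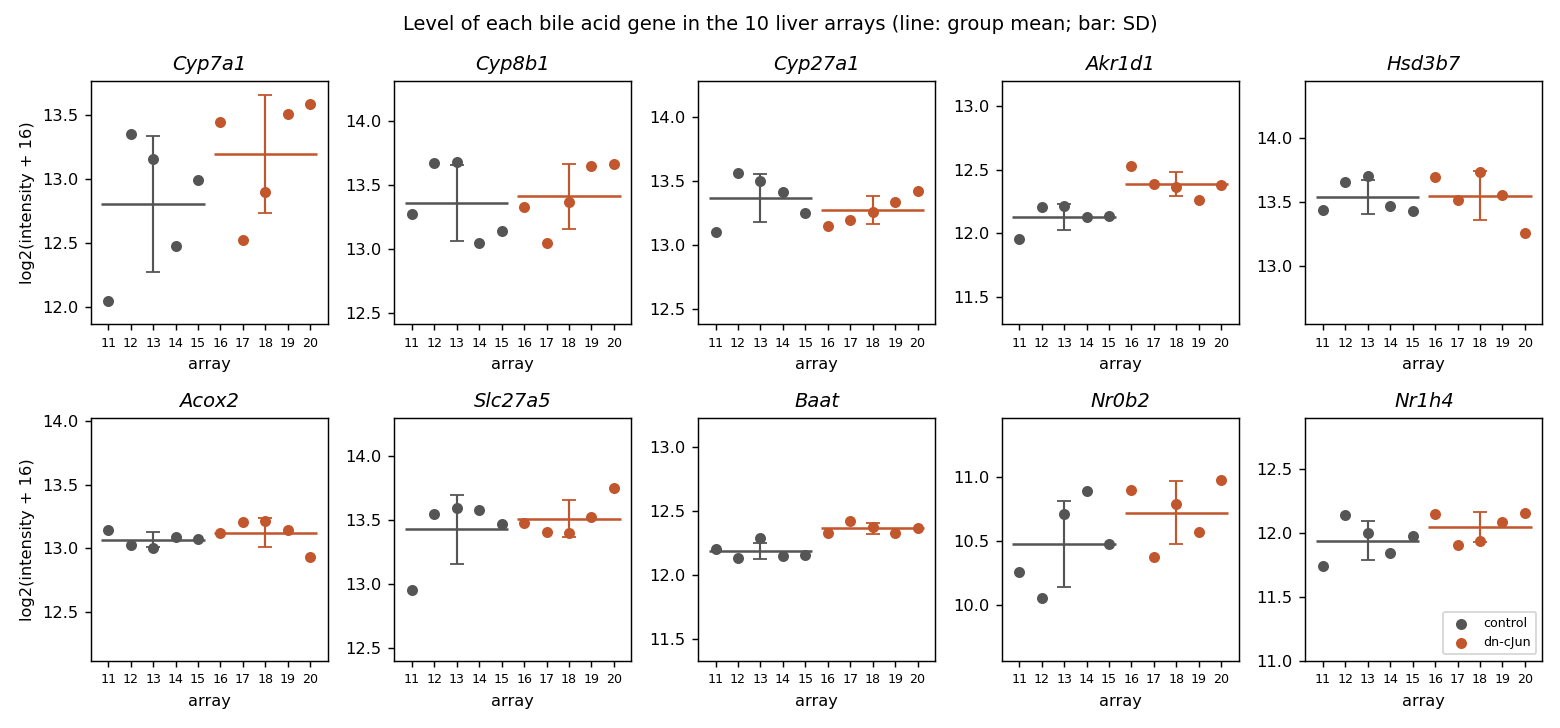
Level of each member gene (y axis, log2(intensity + 16), axes of equal span) in the 10 arrays (x axis), with lines for group means and bars for the SD. Cyp7a1 and Nr0b2 spread widely within both groups, while Akr1d1 and Baat were tight, and their group ranges did not overlap.

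The groups were checked first. Apoe spanned 9.42 to 10.94 on control arrays, while the dn-cJun-labelled arrays held 15.31 to 15.82. The high level goes against the ApoE-/- label of those arrays, so every direction below compares groups that also differed in Apoe. The same Apoe probes were read on every array, and the sources used here do not say where they lie relative to the mutated part. Jun did not separate the groups, spanning 10.18 to 10.73 and 9.84 to 10.82, and they do not say whether its probe set reads the viral transcript. Controls 14 and 15 had Xist at 13.71 and 13.63 and Eif2s3y at 5.22 and 4.08, against 5.90 to 6.72 and 10.58 to 11.13 in the other 8 arrays, so these 2 mice differ from the rest in sex-linked transcripts. For control 11 alone the extraction entry names Trizol. This array also had the highest median deposited intensity, 127.5, and after quantile normalization the lowest level of 5 of the 10 members. As deposited, Cyp7a1 (4970) and Slc27a5 (9046) were lowest on it. Akr1d1 was lower in dn-cJun 19 (4336 against 4693), and Cyp27a1 (8508 against 9956) and Nr1h4 (3412 against 4078) in dn-cJun 17. The parts of extraction and scaling were not tested. Hepatocyte markers were high on every array. Their intensity summed to 385222 to 420486 per control and 408169 to 444038 per dn-cJun-labelled array, and 0 of 10 passed the threshold. Of the 8 Kupffer cell and macrophage markers tested, 6 had a negative difference and 2 a positive one. Past the threshold were 2, both lower (0.777% of all genes passed), Cd5l at -0.57 (limma adjusted p = 0.0323) and Lyz2 at -0.70 (limma adjusted p = 0.0294), and the sum over the list spanned 20748 to 30987 for controls and 17650 to 20925 otherwise. Cholangiocyte markers summed to 409.5 to 503.5 and 291.9 to 552.6, with 0 of the 4 tested past the threshold and Krt7 and Krt19 close to the filter. In bulk liver, fewer cells of a type and less RNA per cell cannot be told apart. The part of these markers in the values below was not tested. As a sign of RNA quality, 3 prime minus 5 prime signal of Gapdh and Actb differed between groups by 0.031 and 0.040 (exact permutation test, two-sided, adjusted p = 0.429 for both).

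Cyp7a1, which catalyses the first and rate-limiting step of the classical route, was the most variable of the 10 genes. Its level was 12.04, 13.35, 13.15, 12.47 and 12.99 in controls 11 to 15 and 13.44, 12.52, 12.90, 13.51 and 13.58 in the dn-cJun-labelled arrays 16 to 20. The deposited intensities ran from 4970 in control 11 to 11831 in dn-cJun 20. Controls 11 and 14 and dn-cJun 17 were low, and the groups overlapped over most of their range. The means were 12.80 ± 0.53 (SD, n = 5) in the controls and 13.19 ± 0.46 (SD, n = 5) in the other group. The difference was 0.39 (SE 0.25, limma adjusted p = 0.504). Its 95% interval of -0.15 to 0.93 leaves folds up to 1.90. The spread within groups, 0.50, was at the 87.1th percentile of all genes tested. Without control 11 the difference was 0.20 (limma adjusted p = 0.748), and without dn-cJun 17 it was 0.55.

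The second Cyp7a1 probe set gave the same picture at a lower signal. It read 10.74, 11.87, 11.95, 11.01 and 11.53 in the controls and 12.21, 11.02, 11.27, 12.08 and 11.46 in the dn-cJun-labelled arrays, a difference of 0.19 (SE 0.26, limma adjusted p = 0.806 over all probe sets). Controls 11 and 14 and dn-cJun 17 were again the lowest 3 arrays. The probe sets disagreed on dn-cJun 20, which was the highest array on the first and in the middle on the second.

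Cyp8b1, the sterol hydroxylase that directs synthesis towards cholic acid, did not follow the group labels. Its level was 13.27, 13.67, 13.68, 13.05 and 13.14 in controls 11 to 15 and 13.33, 13.05, 13.37, 13.65 and 13.66 in the dn-cJun-labelled arrays. The low arrays were controls 14 and 15 and dn-cJun 17, and the high arrays also came from both groups. The log2 fold change was 0.049 (SE 0.14, limma adjusted p = 0.906), with a 95% interval of -0.26 to 0.36. Its sign turned without controls 14 and 15, to -0.13 (limma adjusted p = 0.739).

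The balance of Cyp8b1 to Cyp7a1 was also compared within each array, since the former acts on intermediates made by the latter. The log2 level of Cyp8b1 minus that of Cyp7a1 was 1.23, 0.32, 0.53, 0.57 and 0.15 in controls 11 to 15. In the dn-cJun-labelled arrays it was -0.12, 0.53, 0.47, 0.15 and 0.080. Only differences of this quantity between arrays carry meaning, as the probes differ in brightness. The mean was 0.56 ± 0.41 (SD, n = 5) in the controls and 0.22 ± 0.27 (SD, n = 5) in the other group, a difference of -0.34 (exact permutation test over 252 splits, two-sided, p = 0.151, smallest possible 0.00794). The value was -0.17 without control 11, the array with the highest control value (exact permutation p = 0.286).

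Hsd3b7 encodes the steroid oxidoreductase that acts after the hydroxylation of the sterol ring in both routes. Controls spanned 13.43 to 13.71 and the dn-cJun-labelled arrays 13.26 to 13.74, so that 1 range lay inside the other. The difference was 0.012 (SE 0.092, limma adjusted p = 0.967), and the 95% interval of -0.19 to 0.21 allows folds of 0.878 to 1.16. With 1 array left out it ran from -0.033 to 0.084.

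Akr1d1, the steroid reductase that gives bile acids the bent ring system of their active form, had the smallest unadjusted p of the members. Its level was 11.96, 12.20, 12.21, 12.13 and 12.14 in controls 11 to 15 and 12.53, 12.39, 12.36, 12.26 and 12.38 in the dn-cJun-labelled arrays. Every array of the second group lay above every control, though dn-cJun 19, the lowest of them, lay close to controls 12 and 13. The means were 12.13 ± 0.10 (SD, n = 5) and 12.38 ± 0.094 (SD, n = 5). The difference was 0.26 (SE 0.071), a 1.19-fold higher level with a 95% interval of 1.07 to 1.33 (limma adjusted p = 0.118). The threshold over all genes was therefore not passed.

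The further Akr1d1 probe set lay at 11.36, 11.47, 11.54, 11.37 and 11.50 in the controls and at 12.003, 11.52, 11.76, 11.41 and 11.37 in the dn-cJun-labelled arrays. Here the groups overlapped, and dn-cJun 16 and 18 alone stood above all controls. Its difference was 0.17 (SE 0.11, limma adjusted p = 0.552 over all probe sets).

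Non-overlapping group ranges were seen in 2 of the 10 genes, Akr1d1 and Baat, and in 4.22% of all genes. In both, the dn-cJun-labelled arrays were the higher group, the direction of 2.1% of all genes. Both ranges depended on the scaling. With the values as deposited and with array medians made equal, 0 of the 10 genes had ranges that did not overlap. Under these settings the Akr1d1 difference was 0.079 (limma adjusted p = 0.612) and 0.24 (limma adjusted p = 0.380).

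Cyp27a1 opens the acidic route and was the only member with a negative difference. Its level was 13.10, 13.56, 13.50, 13.41 and 13.25 in controls 11 to 15, and 13.15, 13.19, 13.25, 13.34 and 13.42 in dn-cJun 16 to 20. Control 11 was the lowest array and controls 12 and 13 the highest, so the second group fell inside the range of the controls. The log2 fold change was -0.095 (SE 0.089, 95% interval -0.29 to 0.098, limma adjusted p = 0.668). Without control 11 it was -0.16 and without control 12 it was -0.047. The further Cyp27a1 probe set was dim, at percentile 22.3 by level, with deposited intensities of 5.27 to 54.8. It was the only member probe set below the filter and was fitted only where no filter was set, with a difference of -0.13 (SE 0.38, limma adjusted p = 0.939).

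Acox2, the peroxisomal oxidase that starts the shortening of the bile acid side chain, was among the steadiest members. Controls ranged from 13.01 to 13.15 and the dn-cJun-labelled arrays from 12.93 to 13.21, where dn-cJun 20 was the lowest of all 10. The difference was 0.053 (SE 0.065, 95% interval -0.088 to 0.19, limma adjusted p = 0.762).

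The promoter of Acox2 is printed because it was the only one among the members to hold the AP-1 motif TGANTCA, which AP-1 dimers such as those with cJun bind. RefSeq promoter windows of 250 bases before to 50 after a start (GRCm38.p6) were on hand for 7 of the 10 genes. They were searched on both strands for this motif, the cyclic AMP response element TGACGTCA and the core GTCANTGAC of the FXR inverted repeat. Also searched were the LRH-1 motif CAAGGTCA and TTANNTAA, a loose form of the D-box, where N is any base. The AP-1 motif occurred in 7.81% of all 32851 windows, and the others in 1.79%, 0.387%, 1.56% and 6.0% of them. In the member windows no match of one motif overlapped a match of another. The 250 bases before the first Acox2 start, chr14:8259020-8259269 on the minus strand, hold the AP-1 match, in capitals, at positions -11 to -5 from the start. A second match lies 19 to 25 bases after the other listed start, shown with its surroundings (chr14:8258802-8258831, minus strand).
Acox2 upstream: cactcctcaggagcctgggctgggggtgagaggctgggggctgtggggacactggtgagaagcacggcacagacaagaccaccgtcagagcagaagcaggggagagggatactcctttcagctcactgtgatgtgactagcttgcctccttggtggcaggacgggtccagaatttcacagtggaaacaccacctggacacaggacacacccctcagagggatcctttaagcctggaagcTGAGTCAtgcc
Acox2 second match: caggacagaggTGAGTCAagagtttagtcc
A match is a description of the letters, and the interval of the Acox2 difference included 0.

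The conjugation enzymes are Slc27a5, which activates bile acids with coenzyme A, and Baat, which then joins them to taurine or glycine. Slc27a5 read 12.95, 13.54, 13.60, 13.58 and 13.47 in controls 11 to 15. It read 13.48, 13.41, 13.40, 13.53 and 13.75 in the dn-cJun-labelled arrays. Control 11 stood apart from all other arrays as the lowest, and both groups otherwise overlapped. The difference was 0.084 (SE 0.12, limma adjusted p = 0.793) over all arrays and -0.035 (limma adjusted p = 0.887) without control 11, so its sign rested on that array. It was 0.024 without dn-cJun 20 and 0.15 without controls 14 and 15.

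Baat was the tightest member, with a spread within groups of 0.052, at the 0.589th percentile of all genes tested. The probe set with the higher signal read 12.21, 12.13, 12.29, 12.15 and 12.16 in controls 11 to 15 and 12.33, 12.42, 12.38, 12.32 and 12.36 in the dn-cJun-labelled arrays. All 5 of the latter lay above all controls, the nearest being control 13 and dn-cJun 19. The means were 12.19 ± 0.061 (SD, n = 5) and 12.36 ± 0.040 (SD, n = 5), and the log2 fold change was 0.18 (SE 0.057, limma adjusted p = 0.166). This is a 1.13-fold difference with a 95% interval of 1.04 to 1.23. With the values as deposited the difference was 0.0018 (limma adjusted p = 0.992).

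The other Baat probe set gave a difference of the opposite sign. It read 10.88, 9.63, 9.93, 9.76 and 9.67 in the controls and 9.96, 10.004, 10.17, 9.65 and 9.82 in the dn-cJun-labelled arrays, -0.052 on average (SE 0.20, limma adjusted p = 0.940 over all probe sets). Control 11 was by far the highest array here, although it was unremarkable on the first probe set. The name of the first probe set ends in _s_at, which Affymetrix gives to sets whose probes may match several transcripts.

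**Figure D2:**
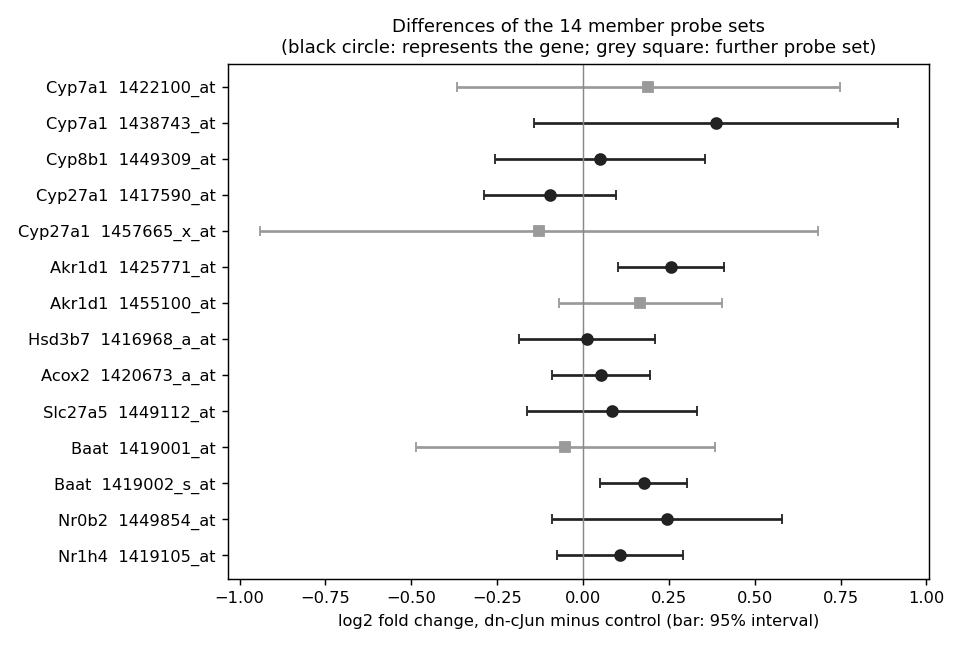
Log2 fold change of each of the 14 member probe sets (x axis, dn-cJun-labelled arrays minus control) with its 95% interval. Black circles represent the gene and grey squares are further probe sets; the intervals of the circles for Akr1d1 and Baat lie above 0 before adjustment over all probe sets, and the pair of Baat probe sets differ in sign.

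Nr1h4, the gene of the bile acid receptor FXR, varied little. Its level was 11.74, 12.14, 11.996, 11.84 and 11.97 in controls 11 to 15 and 12.15, 11.91, 11.94, 12.08 and 12.16 in dn-cJun 16 to 20. Control 11 was again lowest, followed by control 14 and dn-cJun 17, and the groups overlapped. The log2 fold change was 0.11 (SE 0.085, 95% interval -0.076 to 0.29, limma adjusted p = 0.604), and 0.058 without control 11.

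Nr0b2, the FXR target that encodes SHP, read 10.26, 10.05, 10.71, 10.90 and 10.48 in the controls and 10.90, 10.38, 10.79, 10.58 and 10.98 in the dn-cJun-labelled arrays. Controls 11 and 12 were lowest and control 14 was nearly as high as the highest arrays of the other group. The means were 10.48 ± 0.34 (SD, n = 5) and 10.72 ± 0.25 (SD, n = 5). The difference was 0.24 (SE 0.16, 95% interval -0.095 to 0.58, limma adjusted p = 0.501). It was 0.38 without controls 14 and 15 (limma adjusted p = 0.327) and 0.14 without control 12 (limma adjusted p = 0.691).

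Of all 12735 other genes tested, Nr1h4 was the most like Cyp7a1 in its pattern over the 10 arrays. Pearson's r was 0.97 and Spearman's rho 0.96, given as a description with no p because Nr1h4 was picked as the highest. The next were Cdkl4 and Ufsp1, both at 0.95, and 16 genes in all were above 0.9 and 9 below -0.9, with a median r of 0.0023. Both genes ran from control 11, the lowest, over control 14 and dn-cJun 17 up to dn-cJun 20, the highest, but Cyp7a1 varied over a wider log2 span, 12.04 to 13.58, than Nr1h4, 11.74 to 12.16. The values share RNA, array and scaling.

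The likeness was nearly as high within groups and lower on the second Cyp7a1 probe set. With group means removed r was 0.96, where Nr1h4 again ranked 1. It was 0.95 without control 11 (rank 2), 0.97 without controls 14 and 15 (rank 3) and 0.93 without the 2 arrays farthest from the Cyp7a1 median. Against the second Cyp7a1 probe set r was 0.83 (rank 18). The 2 Cyp7a1 probe sets had r = 0.87 with each other, lower than that of the first with Nr1h4. The likeness to Nr1h4 depended on the scaling, with 0.90 at equal array medians (rank 22) and 0.68 with the values as deposited (rank 181). Cyp8b1 had r = 0.72 with Cyp7a1 over the 10 arrays, which ranked it 412.

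**Figure D3:**
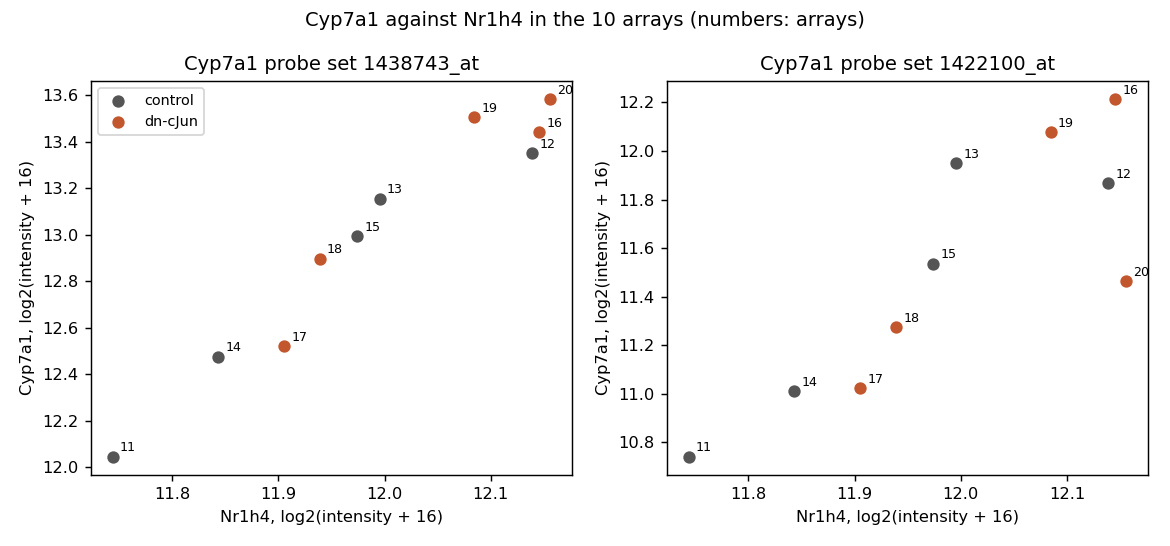
Cyp7a1 (y axis) against Nr1h4 (x axis), both in log2(intensity + 16), for each of the 10 arrays, with the Cyp7a1 probe set of higher signal on the left (r = 0.97) and the other on the right (r = 0.83). Arrays of both groups lie along the same line on the left, and dn-cJun 20 falls below the others on the right.

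The Nr1h4 promoter window is printed as the only one among the members with a match to TTANNTAA, the loose D-box pattern. The clock-controlled factors Dbp and Nfil3 bind the D-box, and whether they bind the letters found here, TTATCTAA, was not tested. The listed start lies inside the Nr1h4 gene as annotated, downstream of its first base. The bases shown are chr10:89506659-89506908 on the minus strand, with the match, in capitals, at positions -131 to -124 from that start. None of the 7 genes had a match to the cyclic AMP, FXR or LRH-1 motif in these windows, which says only that those letters are not there.
Nr1h4 upstream: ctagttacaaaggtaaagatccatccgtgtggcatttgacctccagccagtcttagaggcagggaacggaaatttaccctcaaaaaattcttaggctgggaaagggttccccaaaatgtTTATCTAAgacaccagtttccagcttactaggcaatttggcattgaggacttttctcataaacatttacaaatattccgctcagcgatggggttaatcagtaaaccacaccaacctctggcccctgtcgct

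For 3 pairs the relation across arrays was tested, following the FXR, SHP and enzyme order. Nr0b2 and Cyp7a1 had r = 0.30 (permutation p = 0.399, adjusted p = 0.862 over the 3 pairs) and rho = 0.39 (permutation p = 0.264, adjusted p = 0.396) over 10 arrays. Without controls 11 and 12, the farthest from the Nr0b2 median, r was 0.35. Nr0b2 and Cyp8b1 had r = -0.0031 (permutation p = 0.993, adjusted p = 0.993) and rho = 0.030 (permutation p = 0.946, adjusted p = 0.946), with r = 0.32 without the same 2 arrays. Nr1h4 and Nr0b2 had r = 0.20 (permutation p = 0.575, adjusted p = 0.862) and rho = 0.39 (permutation p = 0.262, adjusted p = 0.396), with r = -0.30 without control 11 and dn-cJun 20. Without controls 14 and 15 the values of r were 0.47, 0.15 and 0.37. No relation between Nr0b2 and the other genes of the pairs was detectable with these arrays.

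The genes most like Nr0b2 over the 10 arrays were Plekhg3, with r = 0.95, Fgd5, with 0.89, and Tbc1d14, with 0.87. 

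Of 15 other enzymes and transporters of bile acid synthesis, 0 passed the threshold in either direction, with 10 higher and 5 lower and a median difference of 0.057. Cyp2c70, which makes the muricholic acids of rodents, had the smallest p. It was at 14.96 ± 0.074 (SD, n = 5) in the controls and 14.63 ± 0.15 (SD, n = 5) in the dn-cJun-labelled arrays, a difference of -0.34 (SE 0.073, limma adjusted p = 0.0535). It passed in 5 of 23 other settings and in 0 of the 10 with 1 array left out. With array medians made equal the Cyp2c70 difference was -0.19 (limma adjusted p = 0.539). Abcd3, a peroxisomal importer of bile acid precursors, was at 0.18 (SE 0.062, limma adjusted p = 0.200). Cyp39a1, an oxysterol hydroxylase, was at -0.53 (SE 0.19, limma adjusted p = 0.207). Its difference was -0.29 without controls 14 and 15.

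Among 16 tested regulators of the FXR axis and of Cyp7a1, 0 passed, with 8 higher and 8 lower and a median of 0.053. Prox1, a homeobox protein known to repress Cyp7a1, was at 8.998 ± 0.092 (SD, n = 5) in the controls and 8.36 ± 0.30 (SD, n = 5) in the dn-cJun-labelled arrays, a difference of -0.64 (SE 0.14, limma adjusted p = 0.0544). It too passed in 5 of 23 other settings and in 0 of 10 with 1 array left out. With the mean of its probe sets the Prox1 difference was -0.33 (limma adjusted p = 0.336). Klb, a co-receptor for the intestinal hormone that lowers Cyp7a1, was at -0.42 (SE 0.13, limma adjusted p = 0.158). Nr1i2, a nuclear receptor for foreign compounds and bile acids, was at 0.25 (SE 0.095, limma adjusted p = 0.236).

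Of 14 tested transporters of bile acids and organic anions, 0 passed, with 5 higher and 9 lower. Abcb11, the bile salt export pump and a target of FXR, was at -0.27 (SE 0.086, limma adjusted p = 0.160), Abcc2, which exports conjugates into bile, at 0.25 (SE 0.11, limma adjusted p = 0.326) and Slco1a1, an uptake carrier, at 0.88 (SE 0.41, limma adjusted p = 0.342). Slco1a1 was at 0.078 without controls 14 and 15 (limma adjusted p = 0.896) and at 0.54 without control 15 alone, and Abcc2 was at 0.16 without control 11. Of 9 tested JNK and AP-1 genes, 0 passed, with 6 higher and 3 lower. The phosphatase gene Dusp1 was at 0.65 (SE 0.28, limma adjusted p = 0.298), which became 0.42 when controls 14 and 15 were left out. The kinase genes Mapk9 and Map2k4 were both at 0.18 (SE 0.085 and 0.10, limma adjusted p = 0.351 and 0.452).

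Clock genes were the only one of these pathway lists with members past the threshold, 2 higher and 1 lower among 15, where 0.777% of all genes passed, 44 higher and 55 lower. The lists were chosen with earlier results of these data known, so this count cannot mark the clock list as standing out. Dbp, a D-box factor known to activate Cyp7a1, fell by 0.44 on the log2 scale (SE 0.083, limma adjusted p = 0.0323), and Nfil3, which represses through the same element, rose by 0.73 (SE 0.12, limma adjusted p = 0.0214). Ciart, a clock repressor, rose by 0.84 (SE 0.17, limma adjusted p = 0.0435). Cyp7a1 itself was at 0.39 (limma adjusted p = 0.504), not lower, and a link of Dbp or Nfil3 to its level was not tested. The fit held no term for the time of day at which livers were taken, and the part of that time was not tested. With 1 array left out, Nfil3 lost its call without dn-cJun 17, 19 or 20 (limma adjusted p = 0.0571, 0.0536 and 0.0503). Dbp kept its call only without control 11 or control 12, and Ciart only without control 12; in the remaining fits their limma adjusted p was 0.0595 to 0.0866 and 0.0615 to 0.108. All 3 calls were lost without controls 14 and 15 (limma adjusted p = 0.0842 for Dbp, 0.0621 for Nfil3 and 0.0826 for Ciart). Over all 23 other settings the call held in 18 for Nfil3, 9 for Dbp and 8 for Ciart, with the sign kept in all. The Dbp difference was -0.051 when probe sets ending in _s_at or _x_at were left out (limma adjusted p = 0.894).

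**Figure D4:**
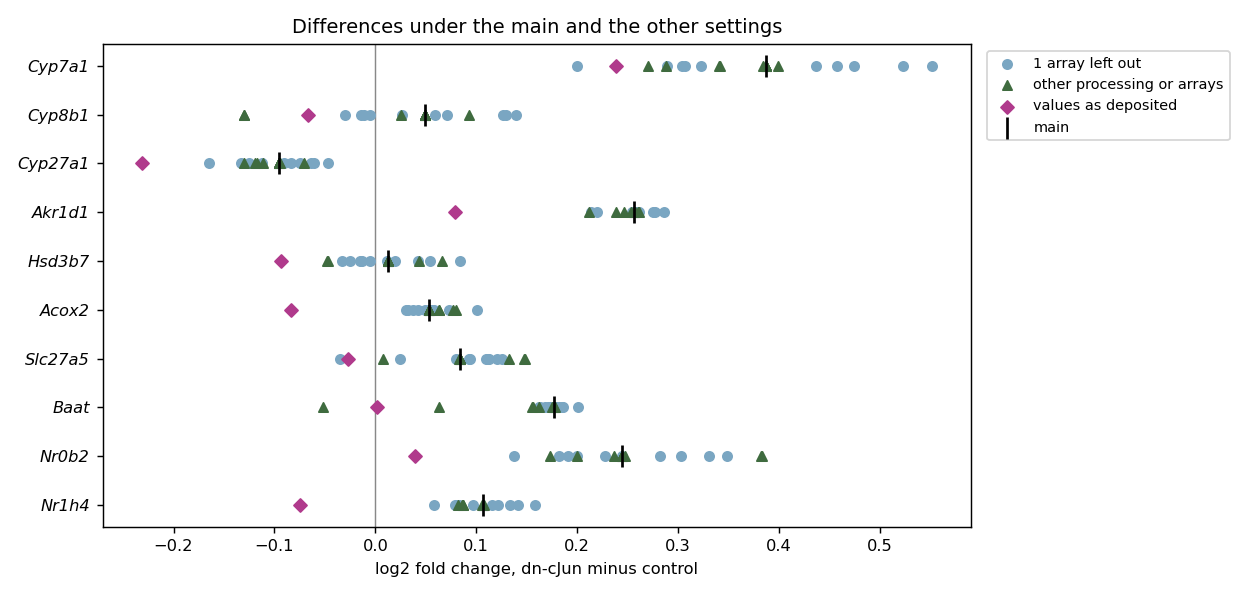
Log2 fold change of each member gene (x axis, dn-cJun-labelled arrays minus control) in the fit reported (black bar), with 1 array left out (circles), under other processing or array choices (triangles) and with the values as deposited (diamonds). Values as deposited lie furthest to the left for 6 of the 10 genes, and 0 of the 230 values from other settings passed the threshold.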

How the data were processed

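The authors deposited linear intensities, 1 value per probe set and array; the sources used here do not give their scaling. The median deposited intensity of the arrays was 85.3 to 127.5. The values were taken as log2(intensity + 16) and quantile normalized over all 45101 probe sets, because array medians spanned 0.50 on the log2 scale. Control probe sets (64) were left out, and 34945 probe sets with 1 gene symbol in the platform annotation were kept (932 had several and 9160 none). Of several probe sets for a gene, the one of highest mean stood for it. Genes whose level reached the 40th percentile of all non-control probe sets (6.06) were tested, 12736 in all. The test was limma 3.58.1 in R 4.3.3 (lmFit and eBayes with an intensity trend). P-values were adjusted by Benjamini-Hochberg over all genes, with a threshold of 0.05. Single values were compared by exact permutation with scipy 1.17.1, and correlations with 100000 resamples. The fit was tested on simulated data, 5 arrays against 5. It recovered 37.3% of genes changed by 0.5 on the log2 scale, 70.7% at 1 and 93.9% at 2. The largest member difference was 0.39, so smaller changes than those simulated could be missed.

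The labels give 1 mouse per array; the number of arrays limits the precision. Alternatives covered scaling, pseudocount, filter, probe set choice, the variance model and arrays left out. Genes named are all 10 members, of each other list every gene past the threshold or else up to 3 with the smallest p, and the 3 genes most like Cyp7a1 and Nr0b2. Cd5l, Lyz2, Krt7, Krt19, Xist, Eif2s3y, Apoe and Jun are given as checks. The members and lists were chosen with earlier results of these data known. Promoters come from RefSeq (GRCm38.p6). Cyp7a1, Slc27a5 and Baat promoters were not used here.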

Additional observations from a re-analysis of the deposited data

Results flagged for a closer look

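In 30 groups of 5 values (the 14 member probe sets and Cyp8b1 minus Cyp7a1, in each condition) the highest or lowest array was set against the others, and 2 stood apart by Dixon's criterion of 0.71; chance alone flags about 1 group in 20. Slc27a5 in control 11 was at 12.95, with the nearest control at 13.47. The further Baat probe set in control 11 was at 10.88, with the nearest control at 9.93. Control 11 was thus low on the first and high on the second, and it is the array whose extraction entry differs from the other 9. The part of the extraction in these values was not tested.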

How the results depend on the processing

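No paired analysis was possible because the groups share no replicate numbers. Over 23 other settings the members gave 230 values, of which 0 passed the threshold and 20 had another sign than reported. The number of genes past the threshold, 99, was 490 for deposited values without scaling, 65 after equalising array medians, 44 with the mean of probe sets, 9 without the intensity trend, 156 with a term for controls 14 and 15, 52 without these 2 arrays and 13 to 199 with 1 array left out. The cause was not tested. With the values as deposited the members' median was -0.047, beside -0.19 for all genes, and these members and kinases changed sign: Cyp8b1 -0.067, Hsd3b7 -0.094, Acox2 -0.084, Slc27a5 -0.027, Nr1h4 -0.075, Mapk9 -0.031 and Map2k4 -0.035. With a term for controls 14 and 15, Cyp8b1 was at -0.13 and Hsd3b7 at -0.048, and without them at -0.13 and -0.047. Baat was at -0.052 without probe sets ending in _x_at or _s_at, and Abcd3 at -0.053 with the mean of probe sets. With 1 array left out, Cyp8b1 ran from -0.030 to 0.14, Hsd3b7 from -0.033 to 0.084 and Slc27a5 from -0.035 to 0.13. The correlation of Nr0b2 with Cyp8b1 was 0.082 with equal array medians, 0.15 without controls 14 and 15 and -0.19 to 0.33 with 1 array left out. That of Nr1h4 with Nr0b2 was between -0.061 without control 11 and 0.60 without control 12.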
